A study of Mus musculus with 6 samples.

Results

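The genes of glycolysis, lactate handling and the pentose phosphate pathway were followed in iNKT cells, the invariant natural killer T lymphocytes, from mice with a constitutively acetylated form of PLZF and from control mice. The list holds 40 genes in all. A gene was measured where an array row carried its symbol as the only symbol in the platform annotation, and where several rows did, the brightest by its mean over the 6 arrays was taken. By this rule 33 of the 40 genes were measured, among 22180 genes on 23521 tested rows. Mpc2, Gpi1, Pfkfb1, Eno1 and G6pdx had no such row, and Aldoa and Tkt were each found only on a row that also carried another symbol.

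Glycolysis splits glucose into pyruvate, which is either reduced to lactate and exported or carried into mitochondria and oxidised, while the pentose phosphate pathway draws sugar phosphates aside to make NADPH and ribose. Activated conventional T cells raise glucose uptake and lactate output under the control of Myc, mTOR and the hypoxia-inducible factor HIF-1α. iNKT cells are T cells with a semi-invariant receptor for lipid antigens, and PLZF, the zinc finger protein encoded by Zbtb16, directs their development and innate-like function.

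The groups were PLZF_ON, with 3 arrays from iNKT cells of mice carrying the acetylated form of PLZF, and WT, with 3 arrays from iNKT cells of control mice. The labels name the cell type and the genotype but not the organ, the age and strain of the mice, the sorting of the cells or the way the altered PLZF is expressed. The study's design text states that replicates 1 and 2 of each group were analysed, so the comparison over those 4 arrays leads, followed by that over all 6. Nothing in the labels says that replicates came from separate mice, so a p-value here reflects the variation among these arrays alone, possibly technical variation.

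The deposited values were log2 expression values, with array medians between 4.88 and 5.01 over all deposited rows. PLZF_ON 3 stood apart from the rest: its correlation with the other arrays was 0.895 to 0.898 over all rows, while the other 5 arrays correlated at 0.957 to 0.973 among themselves. The standard deviation of its values was 1.79, against 1.97 to 2.01 on the other arrays. Zbtb16 read 10.48, 10.68 and 9.54 on PLZF_ON arrays 1, 2 and 3, against 9.96, 10.19 and 9.82 on the WT arrays, a level that says nothing of acetylation. The 9 measured of 11 listed T cell markers summed on the linear scale to 13450, 12710 and 8512 on the PLZF_ON arrays, against 14500, 12950 and 12350 on the WT arrays, so that PLZF_ON 3 was lowest. The sum over all tested rows was also lowest on PLZF_ON 3, at 2187000, against 2626000 to 2747000 on the other arrays. The 12 myeloid markers summed to 291, 325.2 and 638.5 on the PLZF_ON arrays, against 313.3, 300.3 and 307.3 on the WT arrays, and 9 of the 12 were highest on PLZF_ON 3. That array was also the highest for 40% of all tested rows, for 59.9% of rows below the receptor limit described next, and for 3 of 3 measured erythroid, 5 of 7 epithelial and stromal, 4 of 7 B cell and 4 of 7 hepatocyte markers. S100a8 read 7.29 on PLZF_ON 3 and 2.61 to 3.09 on the other arrays, S100a9 7.20 against 3.79 to 4.29, and Lyz2 6.58 against 3.96 to 4.48, but Cd68, a brighter myeloid marker, was lowest there, at 5.32 against 6.45 to 6.95. In bulk RNA, fewer cells of a type and less RNA per cell cannot be told apart, and the part of these markers in the results was not tested. All 7 measured B cell markers, 10 of 12 myeloid, 2 of 3 erythroid, 5 of 7 hepatocyte and 5 of 7 epithelial and stromal markers lay below the receptor limit.

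To judge low levels, 1405 rows of olfactory and vomeronasal receptor genes, which belong to sensory neurons of the nose, were taken as a yardstick. The 95th percentile of their mean levels over the 6 arrays was 5.20. Hk3, Pfkm, Pfkfb4, Aldoc and Eno2 had means below that limit, and the other 28 measured genes were at or above it.

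No measured gene of the list passed the test. With limma and Benjamini-Hochberg adjustment over all tested rows at 0.05, 0 of 33 genes passed over 4 arrays, where 0.17% of all tested rows did, and 0 of 33 over 6 arrays, where 0.0935% of rows did. At an unadjusted p under 0.05 over 4 arrays, 2 of 33 genes were higher in PLZF_ON (Ldhb and Slc16a3), against 4.88% of all rows, and 1 was lower (Rpia), against 4.53% of all rows. Together these 3 genes are 9.09% of the list, close to the 9.41% of all rows in both directions. They are 10.7% of the 28 genes at or above the receptor limit, against 14.5% of all rows at or above it. Over 6 arrays 1 gene, Ldhb, had an unadjusted p under 0.05 (3.03% of the list, against 5.77% of all rows).

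**Figure D1:**
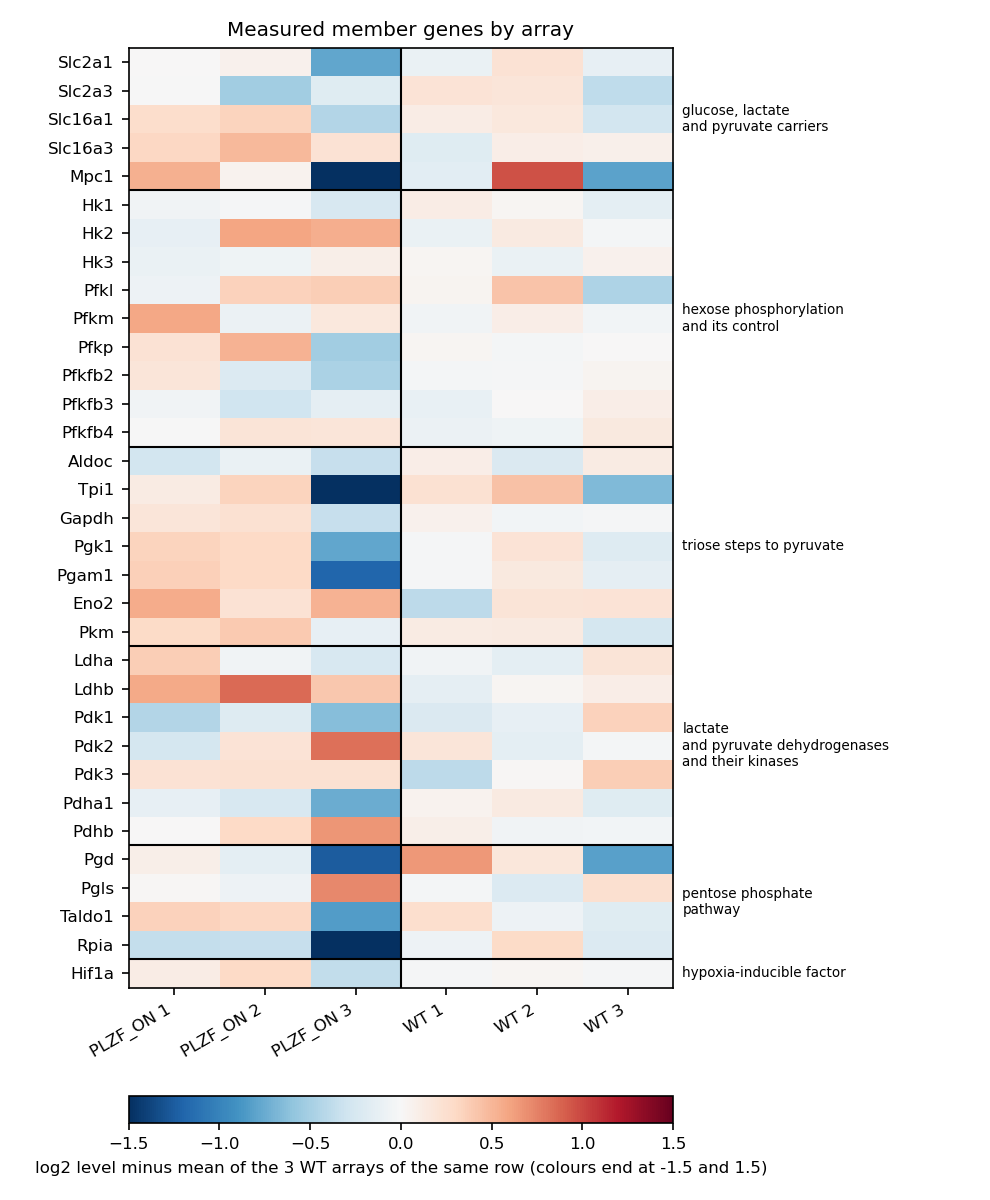
Log2 level of each of the 33 measured genes on each array, as the difference from the gene's mean over the 3 WT arrays, with PLZF_ON arrays left of WT arrays and genes grouped by role. Colours end at 1.5 above and below that mean. PLZF_ON 3 was the lowest of the 6 arrays for 18 genes (54.5%, against 27.1% of all tested rows). Ldhb, Slc16a3 and Eno2 were above every WT array on all 3 PLZF_ON arrays (9.09%, against 5.55% of all tested rows).

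Over 4 arrays 19 of the 33 were higher in PLZF_ON and 14 lower, and the median log2 difference (PLZF_ON minus WT) was 0.13, while the median over all tested rows was 0.00 with 49.3% of rows higher. In 13 genes (39.4%) both PLZF_ON arrays lay above both WT arrays, as did 18.9% of all rows, and in 5 genes (15.2%) both lay below, as did 19.3% of all rows. The 13 were Slc16a1, Slc16a3, Pfkp, Pfkfb4, Gapdh, Pgk1, Pgam1, Eno2, Pkm, Ldhb, Pdk3, Taldo1 and Hif1a, and the 5 were Slc2a3, Hk1, Pdha1, Pgd and Rpia. With all 6 arrays the picture was narrower: 3 genes (9.09%; Ldhb, Slc16a3 and Eno2) were above WT on every array, against 5.55% of all rows, and 1 (3.03%; Rpia) was below on every array, against 6.22% of all rows. The median over 6 arrays was 0.01, against 0.03 for all tested rows, and it was -0.03 when each array was centred on its own median.

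PLZF_ON 3, the array that stood apart, was the lowest for 18 of 33 genes (54.5%), against 27.1% of all tested rows. Of the 28 genes at or above the receptor limit it was lowest for 17 (60.7%), against 50% of all such rows. It was the highest for 4 of the 33 genes (12.1%), which were Pdk2, Pdhb, Pgls and Hk3. Without it, the other 5 arrays gave a median difference of 0.16 over the 33 genes, and 0 genes passed limma (smallest adjusted p = 0.123, Ldhb).

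**Figure D2:**
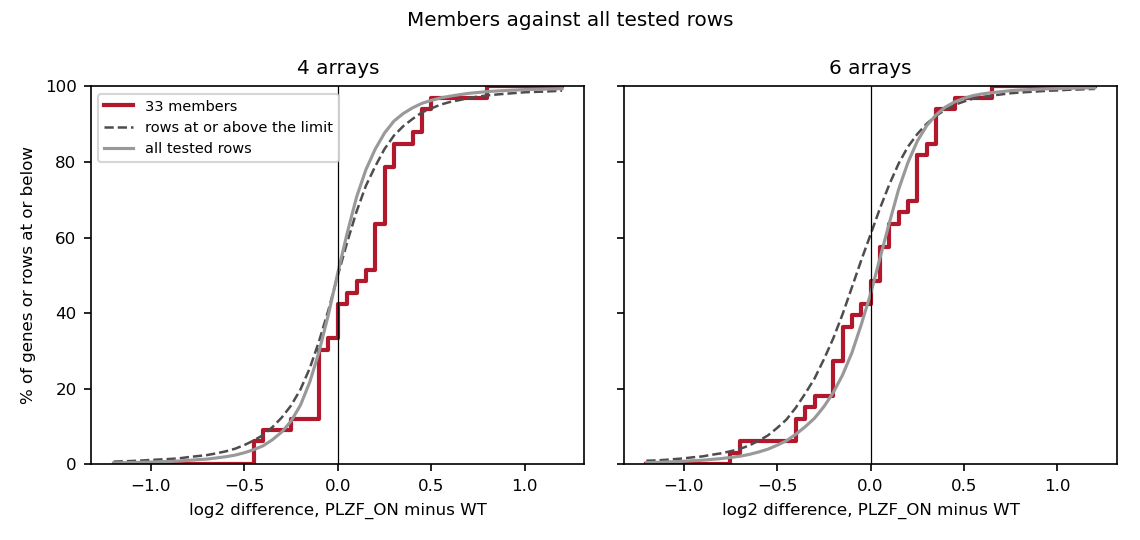
Share of genes or rows (y axis, percent) with a log2 difference, PLZF_ON minus WT, at or below the value on the x axis, for the 33 measured genes, for all tested rows and for rows at or above the receptor limit of 5.20. Over 4 arrays (left) the genes run to the right of both curves just above 0, with a median of 0.13, and over 6 arrays (right) their median is 0.01.

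The 3 genes with the smallest p in the list stand in different steps: Slc16a3 exports lactate, Ldhb is the B subunit of lactate dehydrogenase, and Rpia is the ribose phosphate isomerase of the pentose phosphate pathway. Their promoter windows, from 250 bases before to 50 after the annotated start, are shown because these genes had an unadjusted p under 0.05 and because the core of the HIF binding site, ACGTG or GCGTG on either strand, can be read in them. The sequences are RefSeq's on GRCm38.p6, the build of the sequence table, 5′ to 3′ on the gene's strand, and capitals mark ACGTG in Slc16a3 (2 matches), GCGTG in Ldhb (1 match) and the reverse complement of GCGTG in Rpia (1 match). Slc16a3 lies at chr11:120948817-120949116 on the plus strand, Ldhb at chr6:142507908-142508207 on the minus strand and Rpia at chr6:70792126-70792425 on the minus strand.
Slc16a3: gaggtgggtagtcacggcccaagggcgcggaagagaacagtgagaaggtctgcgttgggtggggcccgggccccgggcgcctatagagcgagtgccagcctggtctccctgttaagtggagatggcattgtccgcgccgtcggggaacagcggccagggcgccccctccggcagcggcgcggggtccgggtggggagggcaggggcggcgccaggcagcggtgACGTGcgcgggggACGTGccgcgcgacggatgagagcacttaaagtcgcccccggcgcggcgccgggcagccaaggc
Ldhb: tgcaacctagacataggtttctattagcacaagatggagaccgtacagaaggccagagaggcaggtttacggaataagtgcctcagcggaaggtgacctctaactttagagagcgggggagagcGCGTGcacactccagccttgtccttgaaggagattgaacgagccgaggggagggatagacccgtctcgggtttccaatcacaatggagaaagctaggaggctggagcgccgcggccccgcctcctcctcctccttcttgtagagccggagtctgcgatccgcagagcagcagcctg
Rpia: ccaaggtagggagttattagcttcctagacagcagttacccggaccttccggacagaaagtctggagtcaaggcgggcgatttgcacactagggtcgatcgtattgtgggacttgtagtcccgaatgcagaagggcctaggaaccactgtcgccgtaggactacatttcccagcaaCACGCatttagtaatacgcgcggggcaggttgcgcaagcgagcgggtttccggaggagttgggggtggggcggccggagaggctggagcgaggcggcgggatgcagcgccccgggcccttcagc

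Matches to these letters were common among the genes listed. Of 46 RefSeq windows of 32 measured genes (Slc2a3 was without one), 22 held ACGTG (47.8%), against 19.6% of all 32851 windows, and 27 held GCGTG (58.7%), against 32.4%. The E-box CACGTG, which contains ACGTG and is the site of Myc, stood in 7 windows (15.2%), against 7.15% of all windows. The windows of the measured genes were richer in G and C, with a median of 61.0% against 52.7% for all windows, and a match is a description of the letters only. Ldhb and Slc16a3, higher in PLZF_ON, and Rpia, lower, all held a match to ACGTG or GCGTG. So did every other measured gene with a window except Tpi1 and Eno2, so a match does not mark these genes out.

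Among the carriers of glucose, lactate and pyruvate, 2 of 5 measured genes were higher and 3 lower over 4 arrays, with a median of -0.02. Slc16a3, the lactate exporter MCT4, read 5.96, 6.15 and 5.88 on PLZF_ON arrays 1, 2 and 3, against 5.48, 5.76 and 5.73 on the WT arrays. All 3 PLZF_ON arrays lay above all 3 WT arrays. The log2 difference was 0.44 over 4 arrays (SE 0.16, 95% interval 0.05 to 0.83, limma unadjusted p = 0.0338, adjusted p = 0.462) and 0.34 over 6 arrays (SE 0.16, adjusted p = 0.906).

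Slc2a1, the glucose transporter GLUT1 and the brightest row of the carriers, read 8.71, 8.78 and 7.93 on the PLZF_ON arrays, against 8.61, 8.93 and 8.58 on the WT arrays. The groups overlapped, with PLZF_ON 3 lowest. Its difference was -0.02 over 4 arrays (SE 0.16, 95% interval -0.41 to 0.36, limma adjusted p = 0.983) and -0.23 over 6. Slc2a3, the high-affinity transporter GLUT3, read 6.02, 5.51 and 5.84 on the PLZF_ON arrays, against 6.23, 6.21 and 5.65 on the WT arrays. Both leading PLZF_ON arrays were below both leading WT arrays, but WT 3 lay among the PLZF_ON values. The difference was -0.46 over 4 arrays (SE 0.19, 95% interval -0.93 to 0.02, limma adjusted p = 0.556) and -0.24 over 6.

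Slc16a1, the lactate carrier MCT1, had a difference of 0.16 over 4 arrays and 0.05 over 6. Mpc1, a subunit of the mitochondrial pyruvate carrier, varied widely within the groups: its values ran from 3.30 on PLZF_ON 3 to 6.57 on PLZF_ON 1, against 5.234 to 6.997 on the WT arrays. Its difference was -0.11 over 4 arrays (SE 0.37), and its other, less variable row gave 0.22.

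**Figure D3:**
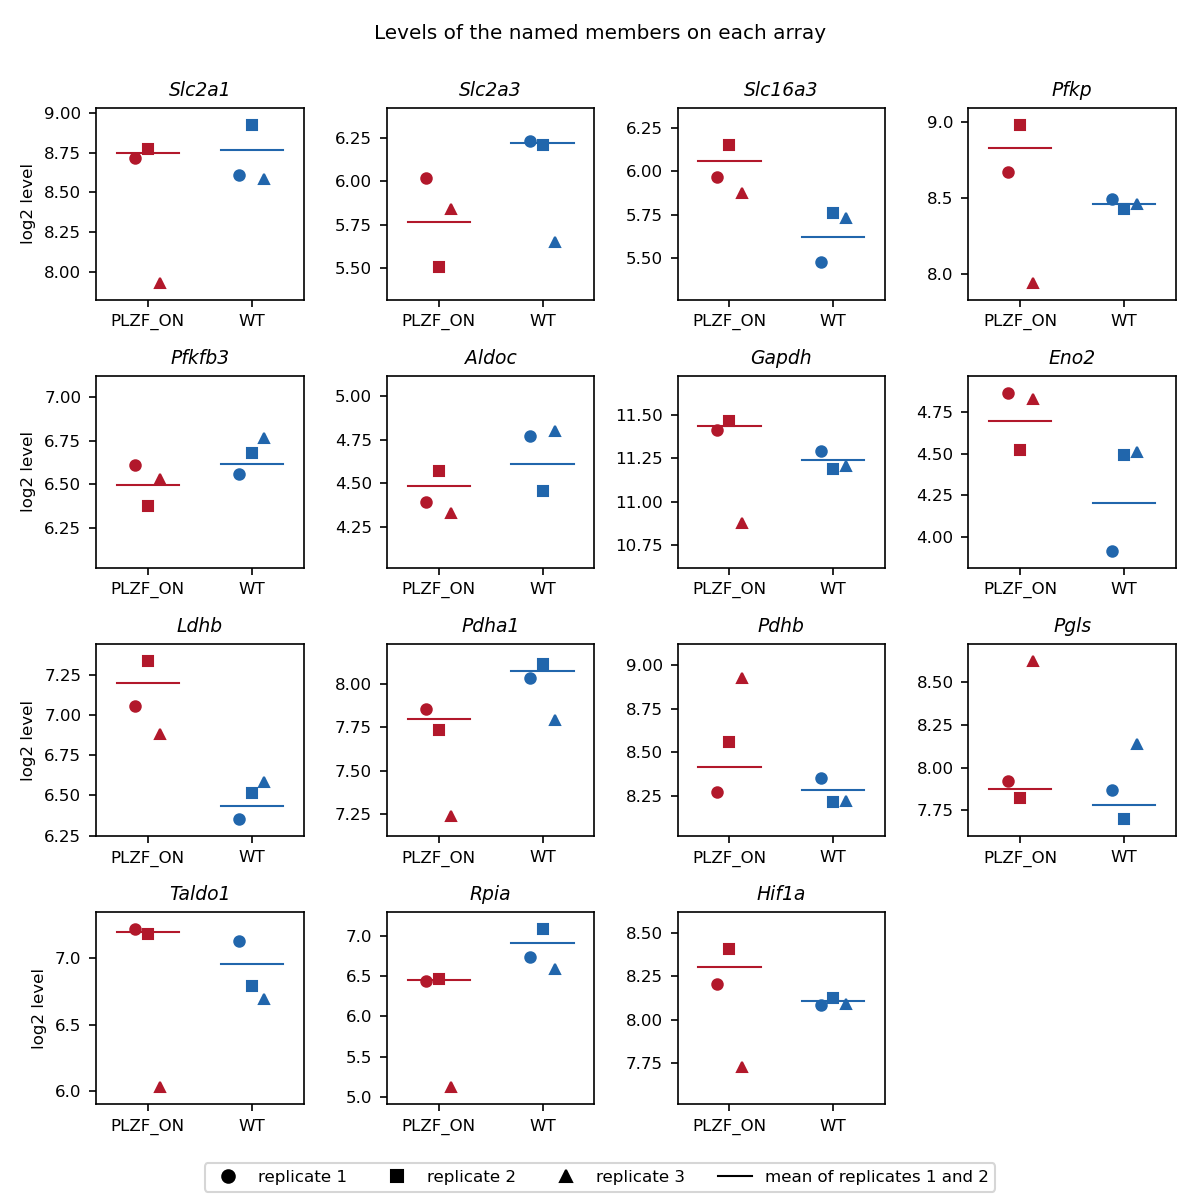
Log2 level on each array for 15 genes (an unadjusted p under 0.05, the brightest row of a role group, or its highest or lowest difference over 4 arrays), each in a panel with its own y axis, PLZF_ON left of WT. Shapes mark the replicate number and lines the mean of replicates 1 and 2. Ldhb, Slc16a3 and, below the receptor limit, Eno2 are above WT on every array, as are 5.55% of all tested rows. Rpia is below WT on every array, as are 6.22% of all tested rows, with PLZF_ON 3 at 5.12 far below the others.

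Of the 9 measured genes that phosphorylate hexoses or control that step, 5 were higher and 4 lower over 4 arrays, with a median of 0.01. Pfkp, the platelet-type phosphofructokinase and the brightest row of these, read 8.67, 8.98 and 7.94 on the PLZF_ON arrays, against 8.49, 8.43 and 8.46 on the WT arrays. The WT arrays were nearly equal, PLZF_ON 1 and 2 were above them and PLZF_ON 3 was below. The difference was 0.37 over 4 arrays (SE 0.16, 95% interval -0.01 to 0.75, limma adjusted p = 0.546), and 0.07 once the replicate 3 arrays were added.

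Pfkfb3, which makes the allosteric activator of phosphofructokinase, read 6.61, 6.38 and 6.53 on the PLZF_ON arrays, against 6.56, 6.68 and 6.77 on the WT arrays. The groups overlapped through PLZF_ON 1 and WT 1. Its difference was -0.12 over 4 arrays (SE 0.15, limma adjusted p = 0.891), which was the most negative of these 9 genes. Apart from Pfkp, the others lay between -0.11 (Hk1, the hexokinase of most tissues) and 0.23 (Pfkm, the muscle-type phosphofructokinase). Hk2, the inducible hexokinase, read 5.18, 5.91 and 5.85 on the PLZF_ON arrays, against 5.21, 5.44 and 5.28 on the WT arrays, with PLZF_ON 1 lowest of all and the other PLZF_ON arrays highest. Its difference was 0.22 over 4 arrays (SE 0.25) and 0.34 over 6 (SE 0.22).

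The enzymes that take triose phosphates to pyruvate had a median difference of 0.21 over 4 arrays. Of 7 measured genes, 5 were above both WT arrays on both PLZF_ON arrays (Gapdh, Pgk1, Pgam1, Eno2 and Pkm). So were 18.9% of all rows and 21.6% of rows at or above the receptor limit, where 5 of the 7 genes lay. Both PLZF_ON arrays were below both WT arrays in 0 genes, against 19.3% and 21.7% of those rows. Taken as the median deviation from the mean of the WT arrays, the 7 genes stood at 0.29, 0.30 and -0.35 on PLZF_ON arrays 1, 2 and 3, against 0.06, 0.14 and -0.13 on the WT arrays. PLZF_ON 3 thus lay below every other array, and the median difference over 6 arrays was -0.05. The replicate 3 array was also the lowest of the WT arrays.

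Gapdh, the triose dehydrogenase often used as a loading control and the brightest row of the group, read 11.41, 11.46 and 10.88 on the PLZF_ON arrays, against 11.29, 11.19 and 11.21 on the WT arrays. PLZF_ON 1 and 2 were above every WT array and PLZF_ON 3 was below them all. The difference was 0.20 over 4 arrays (SE 0.13, 95% interval -0.13 to 0.52, limma adjusted p = 0.759) and 0.02 over 6. Of its other rows, the bright one gave 0.16 and the dim one, below the receptor limit, 0.00 over 4 arrays.

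Eno2, the enolase best known from neurons, read 4.87, 4.52 and 4.83 on the PLZF_ON arrays, against 3.91, 4.49 and 4.51 on the WT arrays. The groups did not overlap, but PLZF_ON 2 was barely above WT 3, and every value lay below the receptor limit. Its difference was 0.49 over 4 arrays (SE 0.23, limma adjusted p = 0.611) and 0.43 over 6 (SE 0.21, limma adjusted p = 0.919). Aldoc, the brain-type aldolase, was also below that limit, at 4.40, 4.57 and 4.33 on the PLZF_ON arrays, against 4.77, 4.46 and 4.80 on the WT arrays, and the groups overlapped through PLZF_ON 2. Its difference was -0.13 over 4 arrays (SE 0.16, limma adjusted p = 0.902), and -0.24 over 6.

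The other triose enzymes had differences of 0.22 (Pgk1, phosphoglycerate kinase), 0.26 (Pgam1, phosphoglycerate mutase), 0.21 (Pkm, pyruvate kinase) and -0.11 (Tpi1, triose phosphate isomerase) over 4 arrays. Over 6 arrays these were -0.05, -0.18, 0.19 and -0.35. Tpi1 read 6.15, Pgam1 6.55 and Pgk1 8.38 on PLZF_ON 3, each lowest of its 6 arrays, while Pkm was not lowest there.

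Proliferation genes were highest on replicate 2 of each group. The 19 measured of 20 cell cycle genes were all higher in PLZF_ON over 4 arrays, with a median difference of 0.68, though 0 passed limma and 3 had an unadjusted p under 0.05, namely Aurka (0.68), Tyms (1.06) and Kif11 (1.44), which is 15.8% of the list against 9.41% of all rows. Their median deviation from the WT mean was 0.48, 1.32 and -0.20 on PLZF_ON arrays 1, 2 and 3, against -0.50, 0.70 and -0.19 on the WT arrays. The part of this in the levels of the glycolysis genes was not tested.

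**Figure D4:**
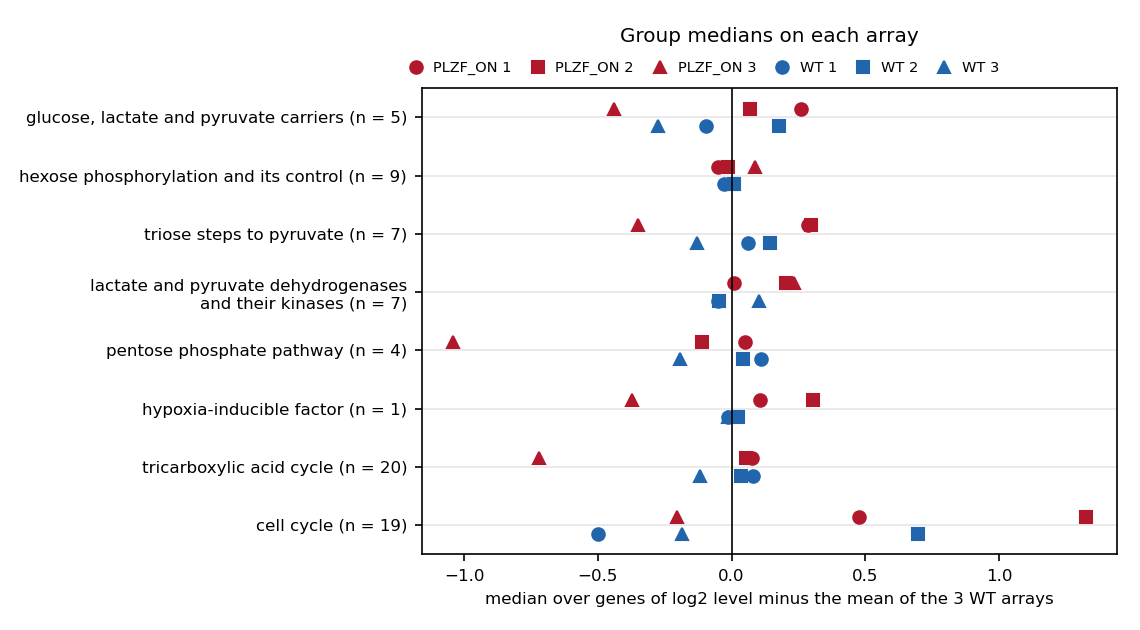
Median over the genes of each role group, and of the tricarboxylic acid cycle and cell cycle lists, of the log2 level minus the mean of the 3 WT arrays (x axis), with 1 mark per array. PLZF_ON 3 is the lowest array for the carriers, the triose steps, the pentose phosphate pathway, Hif1a and the tricarboxylic acid cycle, while PLZF_ON 1 and 2 are the highest for the triose steps.

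At the branch between lactate and mitochondria, 4 of 7 genes were higher and 3 lower over 4 arrays, with a median of 0.13. Ldhb, whose subunit is favoured in tissues that consume lactate, had the smallest p of the whole list. It read 7.06, 7.34 and 6.88 on PLZF_ON arrays 1, 2 and 3, against 6.35, 6.51 and 6.58 on the WT arrays. Every PLZF_ON array was above every WT array. The difference was 0.76 over 4 arrays (SE 0.16, 95% interval 0.38 to 1.15, limma unadjusted p = 0.00272, adjusted p = 0.181) and 0.61 over 6 arrays (SE 0.17, unadjusted p = 0.00808, adjusted p = 0.487).

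Ldha, the subunit that prevails in lactate-producing cells, read 5.90, 5.48 and 5.29 on the PLZF_ON arrays, against 5.48, 5.39 and 5.72 on the WT arrays. Its groups overlapped, and its difference was 0.26 over 4 arrays (SE 0.18, limma adjusted p = 0.765) and 0.03 over 6. The difference in Ldhb was not tested against that in Ldha.

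Pdha1 and Pdhb encode the subunits of the decarboxylating component of pyruvate dehydrogenase. Pdha1 read 7.86, 7.74 and 7.24 on the PLZF_ON arrays, against 8.03, 8.12 and 7.79 on the WT arrays, with WT 3 between PLZF_ON 1 and 2. Its difference was -0.28 over 4 arrays (SE 0.13, 95% interval -0.60 to 0.05, limma adjusted p = 0.621) and -0.37 over 6. Pdhb, the brightest row of the branch, read 8.27, 8.56 and 8.93 on the PLZF_ON arrays, against 8.35, 8.21 and 8.22 on the WT arrays. PLZF_ON 3 was highest here, PLZF_ON 1 was inside the WT range, and the difference was 0.13 over 4 arrays (SE 0.16, limma adjusted p = 0.891) and 0.32 over 6.

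The kinases that switch pyruvate dehydrogenase off differed in sign. Over 4 arrays the difference was -0.15 for Pdk1, a HIF target, -0.04 for Pdk2 and 0.41 for Pdk3 (SE 0.17, limma adjusted p = 0.556). Pdk3 read 6.45, 6.46 and 6.46 on the PLZF_ON arrays, against 5.84, 6.25 and 6.604 on the WT arrays. The PLZF_ON values were level and the WT values ran past them on both sides. Pdk1 had a difference of -0.42 over 6 arrays (SE 0.21, limma adjusted p = 0.919), and its other row gave 0.01 over 4 and -0.05 over 6.

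In the pentose phosphate pathway 2 of 4 measured genes were higher and 2 lower over 4 arrays, with a median of -0.17. Rpia, which forms the ribose phosphate of nucleotides, read 6.45, 6.46 and 5.12 on the PLZF_ON arrays, against 6.73, 7.08 and 6.59 on the WT arrays. All PLZF_ON arrays were below all WT arrays, and PLZF_ON 3 was far below the rest. The difference was -0.46 over 4 arrays (SE 0.16, 95% interval -0.85 to -0.06, limma unadjusted p = 0.0305, adjusted p = 0.449) and -0.79 over 6 (SE 0.36, unadjusted p = 0.0603, adjusted p = 0.888).

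Taldo1, the transaldolase that links the pathway back to glycolysis, read 7.21, 7.18 and 6.03 on the PLZF_ON arrays, against 7.12, 6.79 and 6.69 on the WT arrays. PLZF_ON 1 and 2 were highest and PLZF_ON 3 lowest, and the difference was 0.24 over 4 arrays (SE 0.16, limma adjusted p = 0.753) and -0.06 over 6. Pgls, the lactonase of the oxidative branch and its brightest row, read 7.92, 7.83 and 8.62 on the PLZF_ON arrays, against 7.87, 7.70 and 8.14 on the WT arrays. The replicate 3 array was the highest in each group. Its difference was 0.09 over 4 arrays (SE 0.14, limma adjusted p = 0.924), and its other row gave -0.10. Pgd, the NADPH-forming phosphogluconate dehydrogenase, had a difference of -0.44 over 4 arrays (SE 0.20, limma adjusted p = 0.592) and spanned 6.38 to 7.71 on PLZF_ON arrays and 6.81 to 8.27 on WT arrays, with the replicate 3 array lowest in each group.

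Hif1a encodes the oxygen-regulated subunit of HIF-1, which is controlled mainly through protein stability and drives many glycolysis genes. It read 8.21, 8.40 and 7.73 on the PLZF_ON arrays, against 8.09, 8.13 and 8.09 on the WT arrays. PLZF_ON 1 and 2 were above the tightly grouped WT arrays and PLZF_ON 3 was below them. The difference was 0.20 over 4 arrays (SE 0.14, 95% interval -0.14 to 0.54, limma adjusted p = 0.771) and 0.01 over 6.

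**Figure D5:**
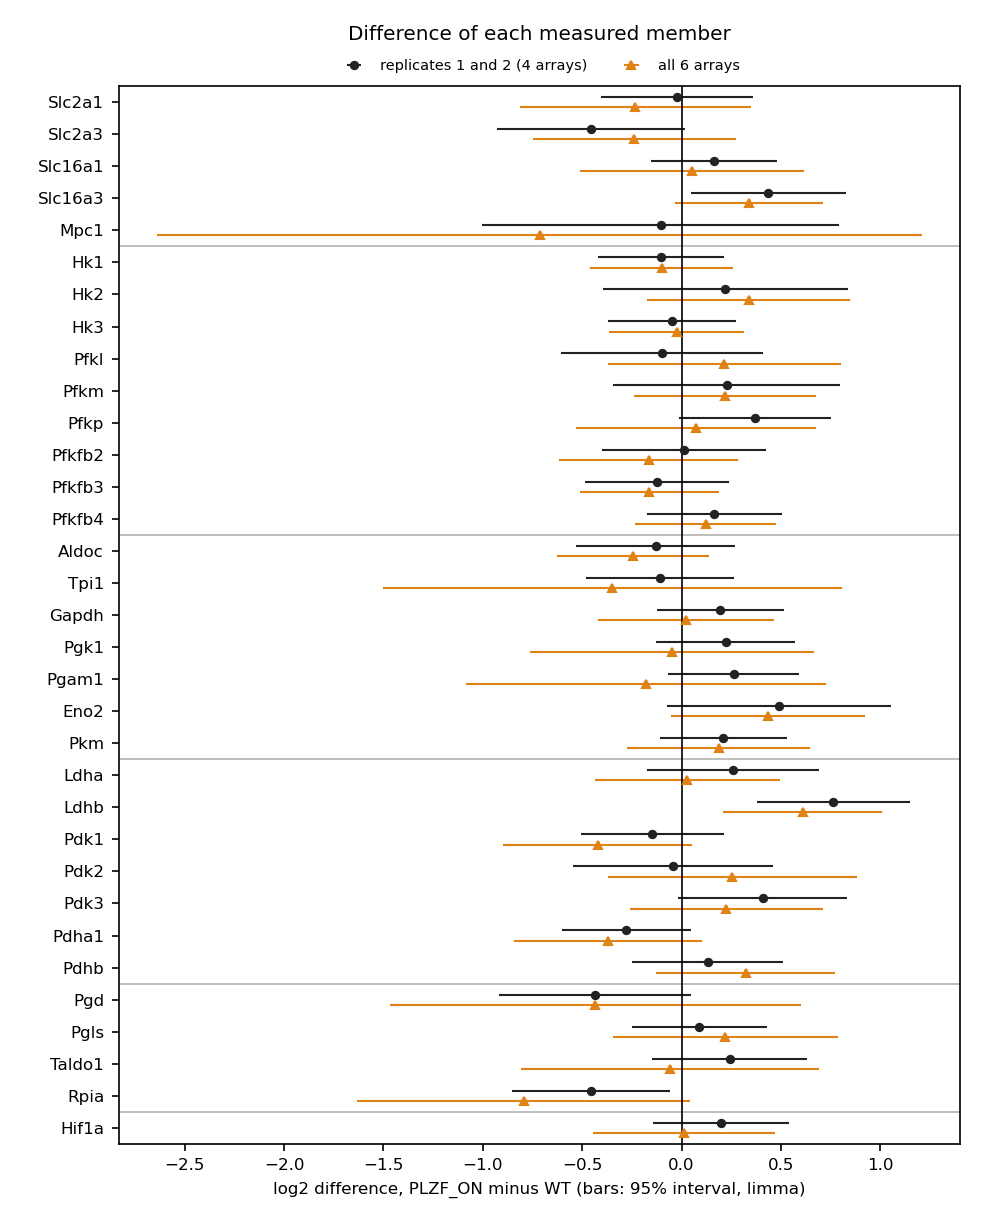
Log2 difference, PLZF_ON minus WT, of each measured gene with its 95% interval from limma, over replicates 1 and 2 (4 arrays) and over all 6 arrays, with lines between the role groups. Over 4 arrays the intervals of Ldhb, Slc16a3 and Rpia leave out 0, and over 6 arrays that of Ldhb does.

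Neighbouring pathways were described with the same test, and 0 genes passed limma in any of these lists over 4 or 6 arrays. Of 19 measured other enzymes of glycolysis and gluconeogenesis, 10 were higher over 4 arrays, and the median difference was 0.00. An unadjusted limma p under 0.05 was found in 9.41% of all rows (4.88% higher), against 3 of the 19 (15.8%), all higher. They were Pck2, the mitochondrial enzyme that makes phosphoenolpyruvate from oxaloacetate (0.71, SE 0.14, limma adjusted p = 0.170), Bpgm, the bisphosphoglycerate mutase (0.39), and Pgm2, of the phosphoglucomutase family (0.44). Pck2 read 6.37, 6.19 and 5.95 on the PLZF_ON arrays, against 5.50, 5.63 and 5.91 on the WT arrays, without overlap. Bpgm was also above WT on every array, which makes 2 of the 19 (10.5%), against 5.55% of all rows. Its levels were low, at 5.32, 5.43 and 5.85 on the PLZF_ON arrays, against 4.92, 5.04 and 4.62 on the WT arrays. Every WT value of Bpgm lay below the receptor limit of 5.20. The Pgm2 difference was 0.04 over 6 arrays, where its groups overlapped and PLZF_ON 3 was lowest.

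Of 7 other genes of the pyruvate dehydrogenase complex, 3 were higher and 0 had an unadjusted p under 0.05. Of 9 other pentose phosphate and ribose genes, 4 were higher, and the median was -0.03. Tktl1, a transketolase-like gene below the receptor limit, was lower at an unadjusted p under 0.05 (-0.37). It makes 11.1% of the list, against 9.41% of all rows. H6pd, the dehydrogenase of the endoplasmic reticulum, had a difference of -0.40 and was below WT on every array. So were 3 of the 9 in all (33.3%), against 6.22% of all rows. The share was 10.7% among rows at or above the receptor limit, where 6 of the 9 lay.

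The 20 measured of 21 genes of the tricarboxylic acid cycle were evenly divided over 4 arrays, 10 higher and 10 lower, with a median of -0.01. Over 6 arrays the median was -0.26, against -0.08 for all rows at or above the receptor limit, where 19 of the 20 genes lay. PLZF_ON 3 was the lowest array for 18 of the 20 (90%), against 50% of rows at or above that limit. Aco1 (0.51) and Idh1 (-0.60), cytosolic counterparts of cycle enzymes, had an unadjusted p under 0.05 over 4 arrays (10% of the list, against 9.41% of all rows), and the Idh1 mean lay below the receptor limit.

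Among 19 regulators of glycolysis and oxygen sensing, 7 were higher and 12 lower. In each direction 2 had an unadjusted p under 0.05, together 21.1% of the list, against 9.41% of all rows. The share was 14.5% among rows at or above the receptor limit, where 17 of the 19 lay. Irf4, a transcription factor induced by T cell receptor signals, had a difference of 1.39 over 4 arrays (SE 0.18, limma adjusted p = 0.0739) and 0.88 over 6 (limma adjusted p = 0.884). It read 7.08, 7.08 and 5.57 on the PLZF_ON arrays, against 5.46, 5.91 and 5.72 on the WT arrays, so that PLZF_ON 3 lay in the WT range. The prolyl hydroxylases that mark HIF for destruction differed in sign: Egln3 read 6.42, 7.22 and 6.43 on the PLZF_ON arrays, against 5.85, 5.75 and 6.12 on the WT arrays (1.02 over 4 arrays, limma adjusted p = 0.271). Egln1 read 7.74, 7.15 and 6.44 on the PLZF_ON arrays, against 8.16, 8.08 and 7.66 on the WT arrays (-0.67 over 4 arrays, limma adjusted p = 0.387). Egln3 was above WT on every array (5.26% of the list, against 5.55% of all rows), while the Egln1 groups overlapped through PLZF_ON 1 and WT 3.

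Of 8 other sugar and monocarboxylate carriers, 3 were higher and 5 lower. Slc16a6, a monocarboxylate carrier of the family of Slc16a3, was the only one with an unadjusted p under 0.05 over 4 arrays. That is 12.5% of the list, against 9.41% of all rows. Only 3 of the 8 carriers, Slc16a6 among them, lay at or above the receptor limit, where the share of rows was 14.5%. Slc16a6 read 6.19, 6.15 and 5.51 on the PLZF_ON arrays, against 7.67, 7.12 and 7.42 on the WT arrays. The groups were well apart, with every PLZF_ON array below every WT array, as in 6.22% of all rows. Its difference was -1.23 over 4 arrays (SE 0.20, limma unadjusted p = 0.000916, adjusted p = 0.115) and -1.46 over 6 arrays (unadjusted p = 0.000314, adjusted p = 0.127).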

How the data were processed

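RNA of iNKT cells was measured on Affymetrix whole-transcript arrays, 3 PLZF_ON and 3 WT. The deposited values are log2 expression values, made with RMA per the submitters' processing notes. Version, genome build and array annotation were not given in the sources used here. Scanner files were not used here, so the log base and the absence of centring were read from the range of the values, and the direction of each difference follows from the labels.

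Of 41345 deposited rows, 23521 had 1 symbol in the platform annotation and were tested, 1814 had several and 16010 none. Entrez numbers of 23328 tested rows matched the NCBI table, and 0 symbols needed updating. Dim rows stayed in.

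PLZF_ON was compared with WT by limma 3.58.1 in R 4.3.3 (lmFit, eBayes without a trend, two-sided, genotype as the only term), with Benjamini-Hochberg adjustment over all tested rows at 0.05. The 4-array fit had 2 residual and 4.10 prior degrees of freedom, and the 6-array fit 4 and 3.78. The number of arrays limits the precision. The fit was tested on simulated data without an outlying array, where each added change was larger than any difference of the listed genes. That test does not gauge how differences of their size are found. Levels of different rows were set against each other only to name the brighter or brightest rows, in summed levels and against the receptor limit. Array-by-array values are given for genes with an unadjusted p under 0.05, the brightest row of each role group, and its highest and lowest difference over 4 arrays; Mpc1, Hk2, Pdk3, Ldha and Pgd were added after their values were seen. From each neighbouring pathway list up to 3 genes with the smallest p over 4 arrays are named; Zbtb16 is named as the gene of PLZF, and S100a8, S100a9, Lyz2 and Cd68 were picked with their values in view. The members and lists were chosen with earlier results of these data known. Alternatives were the replicate block, leaving out arrays, brighter rows, a variance trend, quantile normalization, median centring, all deposited rows, the mean of a gene's rows, array weights and a threshold of 0.1.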

Additional observations from a re-analysis of the deposited data

Results flagged for a closer look

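The row shared by Aldoa, the widely expressed muscle-type aldolase, and the related Aldoart1 stood outside the main test because its signal cannot be assigned to either gene. It read 5.57, 5.46 and 5.75 on PLZF_ON arrays 1, 2 and 3, against 5.24, 5.45 and 5.31 on the WT arrays. All PLZF_ON arrays were above all WT arrays, though PLZF_ON 2 was barely above WT 2. The log2 difference was 0.17 over 4 arrays (SE 0.15, limma unadjusted p = 0.309) and 0.26 over 6 arrays (SE 0.16, unadjusted p = 0.144).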

How the results depend on the processing

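In every alternative run, over 4 and over 6 arrays, 0 of the listed genes passed limma. The smallest adjusted p of a listed gene ran from 0.127 (Ldhb, replicate block) to 0.511 over 4 arrays, and from 0.0514 (Ldhb, array weights) to 1 over 6. Their median difference ran from 0.10 to 0.14 over 4 arrays, and leaving out 1 array moved it from -0.10 to 0.16 over 6, the highest without PLZF_ON replicate 3.

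The number of all rows passing was less stable. Over 4 arrays it was 40, and it was 101 with the replicate block, 0 with all deposited rows, 135 at an adjusted p of 0.1, and 0 to 106 with 1 array left out (0 without PLZF_ON replicate 2, 106 without WT replicate 2). Over 6 arrays it was 22, and it was 5 with median centring, 0 with all deposited rows, 259 with array weights, 46 at an adjusted p of 0.1, and 0 to 107 with 1 array left out (107 without PLZF_ON replicate 3, 6 without PLZF_ON replicate 1, 1 without WT replicate 3, and 0 without WT replicate 1, WT replicate 2 or PLZF_ON replicate 2). Of the 22, 6 were higher in PLZF_ON, against 8 of 21 after quantile normalization. With all deposited rows more tests were adjusted for, and eBayes was also fitted again over those rows. The cause of these shifts was not tested.

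Small differences turned sign. The Pgls difference was -0.005 with the mean of its rows, and that of Gapdh 0.12. With 1 array left out, Aldoc ran from -0.288 to 0.029, Slc2a1 from -0.181 to 0.133 and Pdhb from -0.011 to 0.274. Among larger differences, leaving out 1 array took Eno2 to 0.20 (without WT replicate 1) and 0.78 (without WT replicate 2), Slc2a3 to -0.20 (without PLZF_ON replicate 2) and -0.71 (without PLZF_ON replicate 1), and Taldo1 to 0.07 (without WT replicate 2) and 0.41 (without WT replicate 1). Without WT replicate 2 Rpia was -0.28, and without PLZF_ON replicate 2 Pfkp was 0.21 and Hif1a 0.10. Pfkfb3 ran from -0.24 (without PLZF_ON replicate 1) to -0.01 (without PLZF_ON replicate 2), and Pgls was 0.18 without WT replicate 1 and 0.00 without WT replicate 2. Ldhb, Slc16a3 and Pdha1 moved by under 1.5 times. Over all tested rows, dim ones included, same-numbered arrays deviated together weakly (r = 0.132 over 4 arrays, and 0.092, 0.253 and 0.239 over 6). The median of the cell cycle genes was nonetheless highest on replicate 2 of each group. The labels do not say what a number shares, so the numbers were not taken as pairs. The replicate block brought no listed gene past the threshold. Scanner background was not used here, and the receptor limit is the only gauge of low signal.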

Other observations

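The row shared by Tkt, the transketolase of the pentose phosphate pathway, and Mir3076 read 7.32, 7.63 and 6.68 on PLZF_ON arrays 1, 2 and 3, against 7.54, 7.34 and 7.12 on the WT arrays. The groups overlapped, and the log2 difference was 0.03 over 4 arrays (SE 0.18) and -0.13 over 6 (SE 0.27).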
